A study of Mus musculus with 7 samples.

Results

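Transcripts of 10 genes of the synaptic vesicle and its release machinery were measured in the nasal tissue of mice that inhaled diesel exhaust particles (DEPs) and of control mice. The genes were *Synpr*, *Syp*, *Sv2a*, *Syn1*, *Syn2*, *Syt1*, *Snap25*, *Vamp2*, *Stx1a* and *Cplx1*. They were taken by name as a family, and every probe that was not a control and whose transcript carried 1 of these names was used. This gave 12 probes of the 39429 on the array, and 10 gene names of 32095. *Synpr* is among the key genes that the study itself picked from the 4-week arrays, so its ratio at 4 weeks is not independent evidence of its direction.

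Neurons store transmitter in synaptic vesicles and empty them when calcium enters the nerve ending. Synaptophysin, synaptoporin and SV2A are membrane proteins of the vesicle, and synapsins hold vesicles in reserve near the release site. The vesicle SNARE protein VAMP2 and its partners on the plasma membrane, syntaxin 1A and SNAP25, zip together to fuse the membranes, while complexin clamps the assembled SNAREs and synaptotagmin 1 senses calcium. In the nose, olfactory sensory neurons carry their cell bodies in the olfactory epithelium and release glutamate from axons that end in the olfactory bulb, so that these transcripts can be read from the nasal tissue although the synapses lie outside it.

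The mice were female BALB/c animals, 6 weeks old. The DEP groups breathed nebulised DEPs in saline at 100 µg/m3 for 1 h daily on 5 days of each week, for 4 or 8 weeks, and the control mice received the vehicle according to the methods of the study. RNA came from the nasal septum and turbinate. Both RNAs of a comparison were hybridised to the same Agilent 4x44K array, DEP with the red dye Cy5 and control with the green dye Cy3, on 4 arrays at 4 weeks and 3 arrays at 8 weeks. The labels call the DEP samples biological replicates and give neither the number of mice behind an array nor whether control RNA was pooled. The dyes were not swapped, so a fixed dye effect of a probe and an effect of DEPs cannot be told apart within an exposure time, whereas such an effect cancels in the difference between the times. Each exposure time had a slide of its own, and what belongs to the slide cannot be told apart from what belongs to the time. On single arrays 18601 to 25069 probes of the red channel and 16985 to 26927 of the green channel stood well above background, with 0 saturated spots.

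RefSeq promoter windows of GRCm38.p6, from 250 bases before to 50 bases after each transcription start, were found for 8 of the 10 genes, with 11 starts. *Snap25* and *Vamp2* had no entry. The windows of 4 genes are printed 5′ to 3′ on the strand of the gene, because *Synpr* and *Cplx1* were lower in DEP than in control tissue at both times and *Syp* and *Syn1* changed direction between the times. Capitals mark the GC box GGGCGG, the cAMP response element TGACGTCA and the left part TTCAGCACC of the RE1 element, each searched on both strands. RE1 is the site through which the repressor REST silences neuronal genes in other tissues.
Synpr promoter, chr14:13284530-13284829, plus strand: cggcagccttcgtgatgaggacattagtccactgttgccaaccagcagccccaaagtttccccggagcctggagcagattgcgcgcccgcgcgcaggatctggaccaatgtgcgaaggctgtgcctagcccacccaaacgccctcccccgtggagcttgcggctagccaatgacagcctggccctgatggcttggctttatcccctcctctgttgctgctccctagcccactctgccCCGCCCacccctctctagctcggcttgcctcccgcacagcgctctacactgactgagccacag
Cplx1 promoter, chr5:108549978-108550277, minus strand: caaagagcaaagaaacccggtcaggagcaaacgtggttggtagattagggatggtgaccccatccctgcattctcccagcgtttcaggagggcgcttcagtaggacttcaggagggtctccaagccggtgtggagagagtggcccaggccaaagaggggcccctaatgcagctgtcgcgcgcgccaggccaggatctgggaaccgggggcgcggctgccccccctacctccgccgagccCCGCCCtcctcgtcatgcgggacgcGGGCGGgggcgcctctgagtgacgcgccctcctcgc
Syp promoter, chrX:7638330-7638629, plus strand: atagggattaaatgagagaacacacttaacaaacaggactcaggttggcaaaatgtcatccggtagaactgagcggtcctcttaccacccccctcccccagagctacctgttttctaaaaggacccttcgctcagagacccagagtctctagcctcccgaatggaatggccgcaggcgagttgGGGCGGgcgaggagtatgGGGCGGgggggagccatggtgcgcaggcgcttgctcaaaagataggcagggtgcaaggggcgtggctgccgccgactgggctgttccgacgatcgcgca
Syn1 promoter, chrX:20920869-20921168, minus strand: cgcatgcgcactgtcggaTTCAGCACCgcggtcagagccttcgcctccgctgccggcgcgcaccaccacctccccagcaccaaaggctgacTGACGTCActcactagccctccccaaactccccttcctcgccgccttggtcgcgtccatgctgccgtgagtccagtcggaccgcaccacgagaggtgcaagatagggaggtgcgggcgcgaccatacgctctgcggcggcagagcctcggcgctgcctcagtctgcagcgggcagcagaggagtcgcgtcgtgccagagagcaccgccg

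The printed *Synpr* window belongs to the first of its 2 annotated starts and holds 1 GC box, 13 bases before the start. The *Cplx1* window holds 2 GC boxes, with their first bases at -11 and 15. The *Syp* window also holds 2 GC boxes, at -67 and -49. The *Syn1* window holds no GC box, but has the response element at -159 and the RE1 part at -232. Among all 32851 windows of the same length, the GC box was found in 35.7%, the cAMP response element in 1.79% and the RE1 part in 0.371%. Of the 11 starts of the gene set, 7 had a GC box, and the other 2 motifs were found only in *Syn1*. The TATA box TATAAA was searched as well, and it was found in 13.6% of all windows and in 0 of the 11. The printed windows had a GC content of 63.7% (*Synpr*), 67% (*Cplx1*), 59% (*Syp*) and 68.3% (*Syn1*), against a median of 52.7% over all windows. A match of letters is a description and not a site of binding.

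The ratio of DEP to control passed the test for 9 of the 10 genes at 8 weeks and for 8 at 4 weeks, and for 5 of them the direction turned between the exposure times. *Syp*, *Syn1*, *Syt1*, *Vamp2* and *Stx1a* were higher in DEP than in control tissue at 4 weeks and lower at 8 weeks. *Snap25* was higher at both times, and *Synpr* and *Cplx1* were lower at both. *Syn2* was lower at 8 weeks and did not pass at 4 weeks, and *Sv2a* did not pass the test at either time. In tissue, fewer cells of a type and less RNA per cell cannot be told apart.

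At 4 weeks, 6 genes were higher and 2 lower at the 0.05 level of adjusted p-values from limma's moderated test, adjusted over all 25162 probes tested. The 8 genes are 80% of the set, where 38.2% of all 20664 names tested were called (21.5% higher and 16.7% lower). At 8 weeks, 1 gene was higher and 8 were lower, against 37.5% of all names (20.4% higher, 17.1% lower). The difference between the times was negative for 7 genes and positive for 0 by the same test, against 31% of all names (16.1% negative, 15% positive). The median log2 ratio of the set was 0.29 at 4 weeks and -0.41 at 8 weeks, where the median over all names was 0 and 0.01. A change from higher to lower, called at both times, was shown by 5 of the 10 genes and by 3.46% of all names. The corresponding shares of all names were 8.09% for higher at both times (1 gene), 5.04% for lower at both times (2 genes) and 2.6% for lower and then higher (0 genes).

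**Figure D1:**
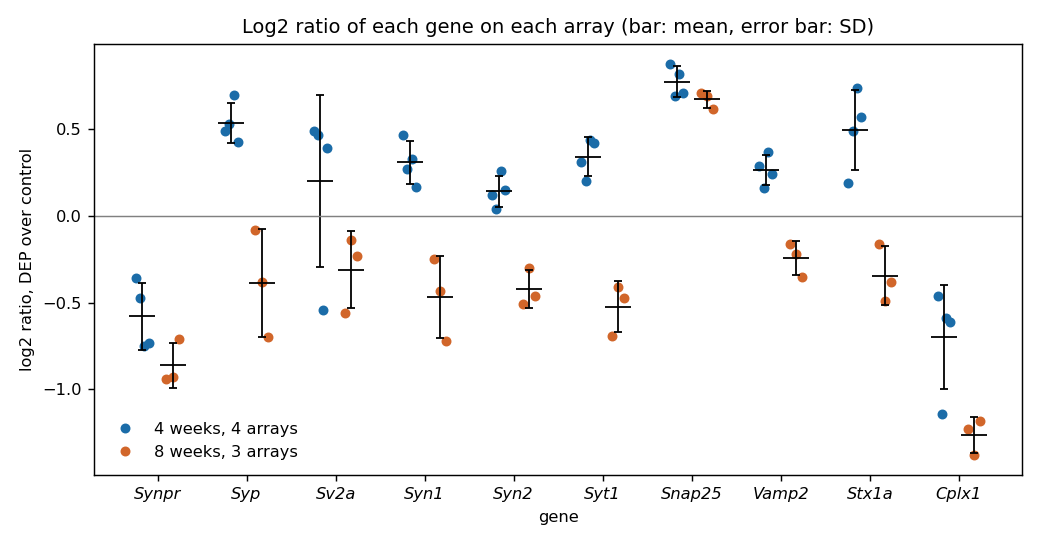
Log2 ratio of DEP over control (vertical axis) of the 10 genes, each by its brightest tested probe, with 1 point per array, a bar for the mean and an error bar for the SD (blue, 4 arrays at 4 weeks; orange, 3 arrays at 8 weeks). Snap25 stays above 0 and Synpr and Cplx1 below 0 on all 7 arrays, while Syp, Syn1, Syn2, Syt1, Vamp2 and Stx1a lie above 0 at 4 weeks and below 0 at 8 weeks.

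Synaptoporin and synaptophysin are close relatives, and they differed in direction at 4 weeks. For *Synpr*, which encodes synaptoporin, the log2 ratios of DEP over control were -0.36, -0.47, -0.75 and -0.73 on the 4-week arrays and -0.94, -0.93 and -0.71 on the 8-week arrays. All 7 arrays had the lower signal in the DEP channel, and the times overlapped. The mean was -0.58 ± 0.19 (SD, n = 4) at 4 weeks, a 1.49-fold lower level (SE 0.0794, adjusted p = 0.0013). At 8 weeks it was -0.86 ± 0.13 (SD, n = 3), a 1.81-fold lower level (SE 0.0916, adjusted p = 0.00033). The difference between the times was -0.28, with a 95% interval from -0.56 to 0 (adjusted p = 0.12). The processed signals of the scanner software, an alternative, gave larger ratios of -1.01 (adjusted p = 0.0019) and -1.68 (adjusted p = 0.00054) and a called difference of -0.67 (adjusted p = 0.047). With median centring the difference was also called (-0.35, adjusted p = 0.044). The log2 intensity of the probe was 6.73 ± 0.21 in the DEP channel and 7.31 ± 0.06 in the control channel at 4 weeks, and 6.87 ± 0.10 and 7.73 ± 0.05 at 8 weeks. A second *Synpr* probe for the same transcript was not well above background in either channel on any array.

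*Syp* encodes synaptophysin, among the most abundant proteins of the vesicle membrane. On the arrays its log2 ratio was 0.49, 0.53, 0.70 and 0.43 at 4 weeks and -0.08, -0.38 and -0.70 at 8 weeks. The times did not overlap, and the 8-week arrays spread more widely than those of 4 weeks. The mean was 0.54 ± 0.11 (SD, n = 4; adjusted p = 0.004) and then -0.39 ± 0.31 (SD, n = 3; adjusted p = 0.027). The difference between the times was -0.93 (SE 0.145, adjusted p = 0.0031). The call at 8 weeks was lost without 8-week replicate 2 (-0.39, adjusted p = 0.11) and without 8-week replicate 3 (-0.23, adjusted p = 0.13), and with the processed signals (-0.36, adjusted p = 0.075). The DEP channel went from 11.04 ± 0.06 to 10.45 ± 0.31 and the control channel from 10.50 ± 0.17 to 10.84 ± 0.10 on the log2 scale between the slides of the 2 times.

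*Sv2a* encodes a vesicle glycoprotein with the fold of a transporter, which binds synaptotagmin. Its log2 ratios were 0.49, 0.47, -0.54 and 0.39 at 4 weeks and -0.56, -0.14 and -0.23 at 8 weeks. Replicate 3 of 4 weeks stood apart from the other 3 arrays. With it the mean was 0.20 ± 0.49 (SD, n = 4), with a 95% interval from -0.19 to 0.60 (adjusted p = 0.37), and at 8 weeks it was -0.31 ± 0.22 (SD, n = 3; adjusted p = 0.25). Without it the 4-week mean was 0.45 (adjusted p = 0.0092), the 8-week mean -0.31 (adjusted p = 0.029) and the difference between the times -0.76 (adjusted p = 0.0054). On this array the control channel read 7.90, against 6.94 to 7.25 on the other 3 arrays, and the DEP channel read 7.36, against 7.43 to 7.71. The control channel was well above background on 3 of the 4 arrays, and the processed signals gave 0.55 and -0.59 (adjusted p = 0.11 and 0.14).

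**Figure D2:**
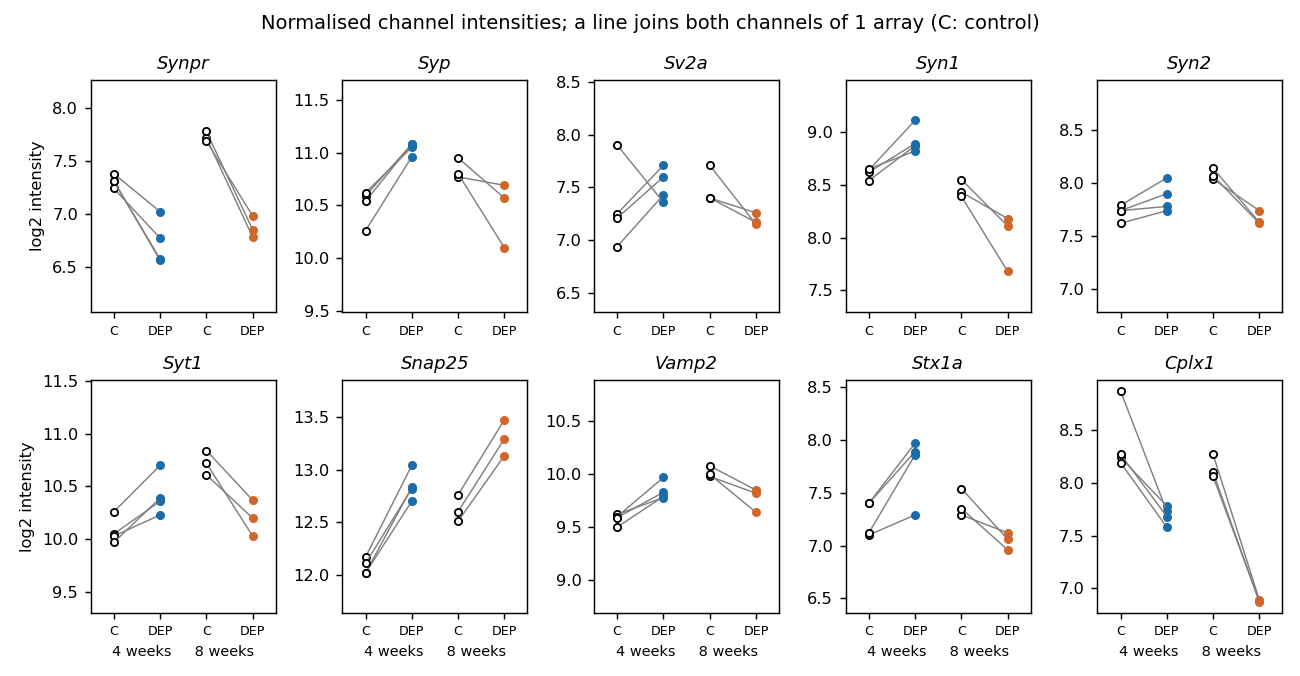
Normalised log2 intensity (vertical axes, each with its own range) of the control channel (C, open points) and the DEP channel (filled points) for each gene, with a line joining both channels of an array, 4 arrays at 4 weeks and 3 at 8 weeks. For Syp the lines rise at 4 weeks and fall at 8 weeks, for Snap25 they rise at both times, and for Synpr and Cplx1 they fall at both. Levels are not compared between genes.

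The synapsins tether vesicles to the cytoskeleton and to each other until they are phosphorylated. For *Syn1* the log2 ratios were 0.47, 0.27, 0.33 and 0.17 at 4 weeks and -0.25, -0.43 and -0.72 at 8 weeks. The signs were the same on all arrays of a time and opposite between the times. The mean was 0.31 ± 0.13 (SD, n = 4; adjusted p = 0.02) and then -0.47 ± 0.23 (SD, n = 3; adjusted p = 0.0069), and the difference was -0.78 (SE 0.124, adjusted p = 0.0033). The 4-week call was lost without replicate 1 (0.26, adjusted p = 0.067), replicate 2 (0.32, adjusted p = 0.051) or replicate 3 (0.30, adjusted p = 0.058) of that time, and with median centring (0.22, adjusted p = 0.09).

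*Syn2* was read by 2 tested probes, for different transcripts. The brighter one gave log2 ratios of 0.12, 0.04, 0.26 and 0.15 at 4 weeks and -0.51, -0.30 and -0.46 at 8 weeks. Its 4-week mean of 0.14 ± 0.09 (SD, n = 4) did not pass the test (adjusted p = 0.078), although all 4 values were above 0 (95% interval 0.01 to 0.27). The 8-week mean was -0.42 ± 0.11 (SD, n = 3; adjusted p = 0.002), and the difference was -0.56 (adjusted p = 0.0026). The dimmer probe gave 0.15, -0.22, 0.58 and 0.25 and then -0.29, -0.52 and -0.52. Both probes thus had a called negative ratio at 8 weeks (dimmer probe -0.44, adjusted p = 0.034) and a called negative difference (-0.63, adjusted p = 0.03), and neither was called at 4 weeks. With the processed signals the 4-week mean of the brighter probe was 0.40 and was called (adjusted p = 0.0052).

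*Syt1*, the calcium sensor of fast release, gave the smallest adjusted p of the set for the difference between the times. Its log2 ratios were 0.31, 0.20, 0.44 and 0.42 at 4 weeks and -0.69, -0.41 and -0.47 at 8 weeks. The mean moved from 0.34 ± 0.11 (SD, n = 4; adjusted p = 0.005) to -0.53 ± 0.15 (SD, n = 3; adjusted p = 0.0014). The difference was -0.87 (SE 0.0978, adjusted p = 0.00071), and the gap between the lowest 4-week array and the highest 8-week array exceeded the range within either time.

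The 3 SNARE genes did not share a direction at 8 weeks. *Snap25* encodes the plasma membrane SNARE that joins syntaxin 1A and VAMP2 in the fusion complex. Log2 ratios of 0.88, 0.69, 0.82 and 0.71 were measured at 4 weeks and of 0.71, 0.69 and 0.62 at 8 weeks. It was the only gene of the 10 with a ratio above 0 on all 7 arrays. The mean was 0.77 ± 0.09 (SD, n = 4), a 1.71-fold higher level (SE 0.0492, adjusted p = 3.3e-05), and then 0.67 ± 0.05 (SD, n = 3), a 1.59-fold higher level (SE 0.0568, adjusted p = 1e-04). The difference was -0.10, with a 95% interval from -0.27 to 0.07 (adjusted p = 0.35). A single probe read *Snap25*, and with a like ratio at both times a fixed dye effect of this probe cannot be told apart from an effect of DEPs. On the arrays the same limit holds for *Synpr*, whose difference between the times was not called. For this gene the paper also reports qRT-PCR of the same nasal tissue, with lower expression after DEPs as on its microarrays. The dye limit also holds for the brightest probes of *Dnajc5*, *Snap23*, *Rab3c* and *Rab3d* described below. It holds as well for *Doc2a* and *Syngr1*, which were lower at both times. Their difference between the times was not called (adjusted p = 0.25 and 0.066).

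*Vamp2*, the vesicle SNARE, had log2 ratios of 0.29, 0.16, 0.37 and 0.24 at 4 weeks and -0.16, -0.22 and -0.35 at 8 weeks. The signs turned between the times on all arrays. The mean was 0.27 ± 0.09 (SD, n = 4; adjusted p = 0.0072) and then -0.25 ± 0.10 (SD, n = 3; adjusted p = 0.018), and the difference was -0.51 (SE 0.0824, adjusted p = 0.0035). The 4-week call was lost with median centring (0.16, adjusted p = 0.085), and the 8-week call without 8-week replicate 2 (-0.26, adjusted p = 0.076) or replicate 3 (-0.19, adjusted p = 0.09).

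*Stx1a*, the plasma membrane partner of *Vamp2* and *Snap25*, had log2 ratios of 0.19, 0.49, 0.74 and 0.57 at 4 weeks and -0.16, -0.49 and -0.38 at 8 weeks. All 7 arrays followed the same turn. The mean was 0.50 ± 0.23 (SD, n = 4; adjusted p = 0.0049) and then -0.34 ± 0.17 (SD, n = 3; adjusted p = 0.038), with a difference of -0.84 (SE 0.141, adjusted p = 0.0041). The 8-week call was lost without replicate 2 or replicate 4 of 4 weeks (-0.34 and an adjusted p of 0.053 each), without replicate 2 of 8 weeks (-0.27, adjusted p = 0.2) and without replicate 3 of 8 weeks (-0.32, adjusted p = 0.14). The processed signals gave 0.91 (adjusted p = 0.002) and -0.50 (adjusted p = 0.037).

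*Cplx1* encodes complexin 1, which binds the assembled SNARE complex and both clamps fusion and prepares it for calcium. It had the lowest mean ratios of the set. On the arrays they were -0.46, -1.14, -0.59 and -0.61 at 4 weeks and -1.23, -1.38 and -1.18 at 8 weeks. Every array was below 0, and only replicate 2 of 4 weeks came near the 8-week values. The mean was -0.70 ± 0.30 (SD, n = 4), a 1.62-fold lower level (SE 0.104, adjusted p = 0.0019), and then -1.27 ± 0.10 (SD, n = 3), a 2.4-fold lower level (SE 0.12, adjusted p = 0.00018). At 8 weeks it was the only gene of the set past the thresholds of the study, an unadjusted p of at most 0.01 with at least a 2-fold change, which 2.94% of all names passed. At 4 weeks none of the 10 passed them, against 1.31% of all names. The paper, by contrast, counts *Synpr* among the genes past these thresholds. With the processed signals 2 of the 10 passed at 8 weeks (*Synpr* at -1.68 and *Cplx1* at -2.26) and 1 at 4 weeks (*Synpr* at -1.01).

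The DEP channel of *Cplx1* read 7.69 ± 0.08 at 4 weeks and 6.88 ± 0.01 at 8 weeks on the log2 scale, and the control channel read 8.39 ± 0.32 and 8.14 ± 0.11. The difference between the times was -0.57 (SE 0.159, adjusted p = 0.032). It stayed called in only 1 of the 7 fits that left out an array, the fit without replicate 2 of 4 weeks (-0.71, adjusted p = 0.0028). In the other 6 it ran from -0.61 to -0.49, with adjusted p from 0.059 (without replicate 1 of 4 weeks) to 0.11 (without replicate 2 of 8 weeks). The processed signals gave -0.83 (adjusted p = 0.0037) and -2.26 (adjusted p = 0.00015), with a difference of -1.42 (adjusted p = 0.0034).

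**Figure D3:**
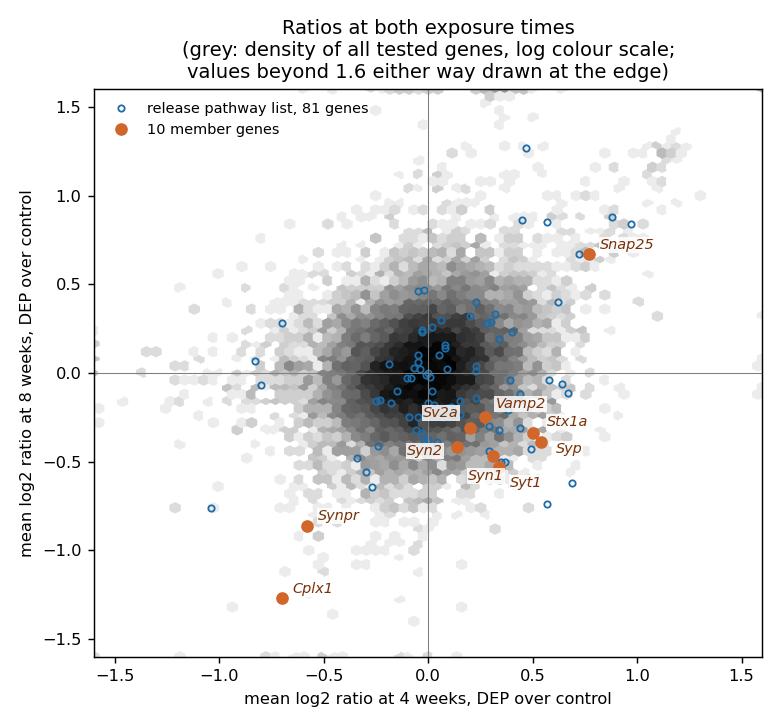
Mean log2 ratio of DEP over control at 4 weeks (horizontal axis) and at 8 weeks (vertical axis) for the 10 genes (orange), 81 other genes of the release pathway (blue rings) and all tested genes (grey density, log colour scale). Of the 10 genes, 7 lie in the lower right quadrant, Snap25 in the upper right and Synpr and Cplx1 in the lower left.

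The ratios of *Synpr* over the 7 arrays were set against those of 15493 other genes as a description, with the caution that 2 slides divide the 7 points. The highest Pearson correlations were those of *Soga3* (0.995), *Amot* (0.975), *Sugp2* (0.975), *Ccdc51* (0.974) and *Alg6* (0.972). These 5 genes varied far less than *Synpr* itself. *Soga3*, for example, had log2 ratios of -0.01, -0.02, -0.13 and -0.12 at 4 weeks and -0.18, -0.17 and -0.10 at 8 weeks. Within the set, the nearest to *Synpr* was *Sv2a*, with a correlation of 0.76 and rank 1032, and the others lay between 0.43 (*Stx1a*) and 0.63 (*Syn1*).

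Other genes of transmitter release were read from a list of 93 genes in 10 functional groups, of which 92 were on the array and 81 were tested. At 4 weeks 28 were higher and 9 lower in DEP than in control tissue, together 45.7% against 38.2% of all names. At 8 weeks 15 were higher and 23 lower, together 46.9% against 37.5%. With median centring in place of loess, 8 were higher and 31 lower at 8 weeks. The median log2 ratio was 0.06 at 4 weeks and -0.06 at 8 weeks. For 24 of the 81 genes the difference between the times was negative and for 5 it was positive, against 16.1% and 15% of all names. Higher then lower was called for 9 genes (3.46% of all names), higher at both times for 11 (8.09%) and lower at both for 4 (5.04%), the last of these near the share of all names. Among all names, 21.5% were higher and 16.7% lower at 4 weeks, and 20.4% and 17.1% at 8 weeks. The counts of the small groups below stand beside these shares as a description.

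Of 12 tested genes of vesicle recycling, 5 were higher at 4 weeks and none lower, and at 8 weeks 1 was higher and 7 were lower. *Dnm1*, the dynamin that pinches off vesicles from the membrane, had the lowest called ratio of the list at 8 weeks. Its log2 ratios were 0.53, 0.58, 0.64 and 0.53 at 4 weeks (mean 0.57, adjusted p = 0.012) and -0.35, -0.58 and -1.28 at 8 weeks (mean -0.74, adjusted p = 0.0075). A dimmer *Dnm1* probe read 0.20 ± 0.09 (adjusted p = 0.021) and 0.09 ± 0.08 (adjusted p = 0.28). *Dnajc5*, a vesicle chaperone, read 0.88 at both times by its brightest probe (adjusted p = 0.00013 and 0.00022). Its other 2 probes read 0.09 and -0.07 at 4 weeks and -0.04 and -0.09 at 8 weeks, and none of these 4 values passed the test.

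Among the 16 tested SNAREs and their partners, 6 were higher and 1 lower at 4 weeks, and 3 were higher and 6 lower at 8 weeks. *Snap23*, the relative of *Snap25* found in most cell types, was higher at both times by its brighter probe (0.72 and 0.67, adjusted p = 6.5e-05 and 0.00015). The dimmer probe read 0.14 and 0.06 and did not pass (adjusted p = 0.11 and 0.6). *Nsf* and *Napa*, which take spent SNARE complexes apart, were chosen after their values were seen, as partners of the 3 SNARE genes. They read 0 and 0.04 at 4 weeks and were lower at 8 weeks (-0.38, adjusted p = 0.0077, and -0.39, adjusted p = 0.013). In the same group *Napb* read 0.38 (adjusted p = 0.0079) and then -0.21 (adjusted p = 0.11). *Napg* read -0.04 and 0.02 and was called at neither time.

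In the complexin group, 2 of 3 listed genes were tested. *Cplx2*, the paralog of *Cplx1*, read 0.43, 0.50, 0.47 and 0.50 at 4 weeks and 1.28, 1.32 and 1.20 at 8 weeks by its brightest probe, opposite in sign to *Cplx1* on all 7 arrays. The means were 0.47 (adjusted p = 0.00017) and 1.27 (adjusted p = 2.9e-06), the highest called ratio of the list at 8 weeks. The 4 *Cplx2* probes disagreed at 8 weeks. Besides the brightest, 2 probes read 1.54 ± 0.09 and 1.29 ± 0.17, while the dimmest read -0.50 ± 0.08 (SD, n = 3; adjusted p = 0.0023) after 0.46 ± 0.17 (SD, n = 4; adjusted p = 0.002) at 4 weeks.

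Of 13 tested genes of the active zone and of priming, 6 were higher and 1 lower at 4 weeks, and 4 were higher and 3 lower at 8 weeks. *Bsn*, the scaffold Bassoon, read 0.38, 0.68, 0.88 and 0.76 at 4 weeks (mean 0.67, adjusted p = 0.00097) and 0.07, -0.20 and -0.21 at 8 weeks (mean -0.11, adjusted p = 0.43). *Erc2*, which encodes another scaffold of the active zone, was higher at both times by its brighter probe (0.57 and 0.85, adjusted p = 0.00015 and 3.1e-05), while the dimmer probe read -0.13 and -0.25 (adjusted p = 0.095 and 0.018). *Cadps2*, a priming factor of secretory vesicles, was lower at both times (-0.27 and -0.64, adjusted p = 0.013 and 0.00051). Its 4-week call was lost without replicate 2 or replicate 4 of 4 weeks (-0.25 and an adjusted p of 0.052 each).

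The Rab3 proteins are small GTPases on the vesicle, and they divided in pairs. *Rab3a* read 0.37 and then -0.50 (adjusted p = 0.0054 and 0.0026), and *Rab3b* 0.35 and then -0.50 (adjusted p = 0.0036 and 0.0013). *Rab3c* was higher at both times by its brightest probe (0.97 and 0.84, adjusted p = 9.1e-05 and 0.00031) and by a second probe (0.79 and 0.90), while the dimmest read -0.11 and -0.17 and did not pass. *Rab3d* read 0.28 at both times (adjusted p = 0.01 and 0.016). *Rab3b* and *Rab3d* were chosen after their values were seen, to complete the family. *Rab27b*, a GTPase of secretory vesicles, read -0.34, -0.76, -0.89 and -0.82 at 4 weeks (mean -0.70, adjusted p = 0.00086) and 0.26, 0.35 and 0.22 at 8 weeks (mean 0.28, adjusted p = 0.07), and its dimmer probe read -0.15 and 0.11 without passing.

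**Figure D4:**
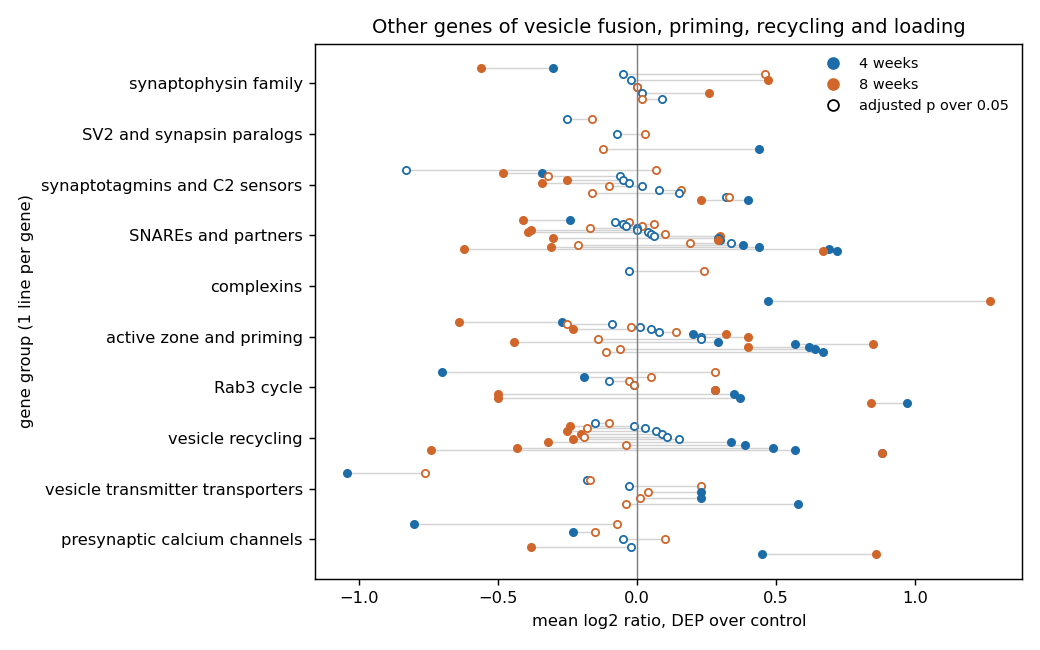
Mean log2 ratio of DEP over control (horizontal axis) of the 81 tested genes of the release pathway list, in 10 functional groups, with 1 line per gene joining its 4-week value (blue) to its 8-week value (orange); open points had an adjusted p over 0.05. In vesicle recycling, 5 of 12 genes are higher at 4 weeks (21.5% of all names) and 7 are lower at 8 weeks (17.1% of all names). The rightmost 8-week point is Cplx2 at 1.27.

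Of the relatives of *Syp* and *Synpr*, the 6 tested genes of the synaptophysin family had 1 lower at 4 weeks and 2 higher and 1 lower at 8 weeks. The lower one was *Syngr1*, a synaptogyrin of vesicles, with -0.30 and -0.56 (adjusted p = 0.0073 and 0.00074). Its dimmer probe read 0.14 (adjusted p = 0.12) and -0.42 (adjusted p = 0.004). *Doc2a*, a calcium sensor of the group of synaptotagmins and C2 proteins, was lower at both times (-0.34 and -0.48, adjusted p = 0.0025 and 0.00095). In that group of 10 tested genes, 1 was higher and 1 lower at 4 weeks, and 1 higher and 3 lower at 8 weeks. Of the 3 tested paralogs of SV2 and the synapsins, 1 was higher at 4 weeks and none was called at 8 weeks.

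Among the transporters that fill vesicles with transmitter, 3 of 6 tested genes were higher and 1 lower at 4 weeks, and none was called at 8 weeks. The lower one was *Slc32a1*, the vesicular transporter of GABA and glycine. The arrays gave log2 ratios of -2.48, -0.47, -0.67 and -0.53 at 4 weeks and -0.81, -0.76 and -0.72 at 8 weeks. Replicate 1 of 4 weeks stood far below the others, and the mean was -1.04 with it (adjusted p = 0.031) and -0.56 without it (adjusted p = 0.00082). The call was lost without replicate 2 (adjusted p = 0.054) or replicate 3 (adjusted p = 0.051) of 8 weeks, at the same mean of -1.04. Of 5 tested calcium channel subunits, 1 was higher and 2 lower at 4 weeks, and 1 was higher and 1 lower at 8 weeks. *Cacna2d2*, an auxiliary subunit, was higher at both times (0.45 and 0.86, adjusted p = 0.00068 and 4.6e-05). *Cacna2d3* had a DEP signal that was not well above background on any 4-week array, while the control signal was well above it on 3 of 4. Its log2 ratios were -0.06, -1.62, -1.27 and -0.23 at 4 weeks (mean -0.80, adjusted p = 0.036), so replicates 2 and 3 carried most of the mean. As a bound on the mean alone, control was 1.64-fold higher, which does not hold for each array and leaves out the spread. This bound sets the mean of the control channel (7.08 on the log2 scale; DEP 6.29) against the lowest DEP signals that were well above background. The call was lost without replicate 2 (-0.52, adjusted p = 0.11) or replicate 3 (-0.64, adjusted p = 0.11) of 4 weeks, and when any of the 8-week arrays was left out (adjusted p = 0.055 to 0.06).

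Marker genes of cell types in the nose were read from 8 lists, and the mature olfactory sensory neurons moved in the direction of most of the 10 genes. Their list was higher at 4 weeks for 10 of 15 genes (21.5% of all names) and lower for none. At 8 weeks the list was lower for 12 genes (17.1% of all names) and higher for none. Its median log2 ratio per array was 0.31 to 0.45 at 4 weeks and -0.62 to -0.47 at 8 weeks. The summed linear intensity of the list was 158762 to 172227 in the DEP channel and 89701 to 104520 in the control channel at 4 weeks, and 104323 to 109657 and 145996 to 162758 at 8 weeks. *Omp*, the olfactory marker protein, read 0.89 and -0.43 (adjusted p = 4e-05 and 0.0024). *Gnal*, the olfactory G protein, read 0.61 and -0.72, and *Cnga2*, a subunit of the transduction channel, 0.44 and -0.46, all called. *Adcy3*, the olfactory adenylyl cyclase, read 0.04 (adjusted p = 0.88) and -0.71 (adjusted p = 0.044). The part of these markers in the results of the vesicle genes was not tested.

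Set against the list median of the same array, with no test, the genes spread as follows. *Syp* lay 0.14 ± 0.07 above it at 4 weeks and 0.15 ± 0.30 at 8 weeks. *Syt1* lay at -0.05 ± 0.15 and 0.01 ± 0.21, and *Syn1* at -0.09 ± 0.13 and 0.07 ± 0.23. Apart from the small excess of *Syp* at 4 weeks, these values lay within their spread of 0. *Vamp2* lay at -0.13 ± 0.11 and 0.29 ± 0.11, *Stx1a* at 0.10 ± 0.22 and 0.19 ± 0.10, and *Syn2* at -0.25 ± 0.11 and 0.12 ± 0.18. *Vamp2* was thus below the median on all 4-week arrays and above it on all 8-week arrays, *Stx1a* above it on all 8-week arrays, and *Syn2* below it on all 4-week arrays. *Sv2a* lay at -0.19 ± 0.53 and 0.23 ± 0.29. *Snap25* lay above the median at both times, by 0.38 ± 0.11 and 1.21 ± 0.09. *Synpr* lay at -0.97 ± 0.20 and -0.32 ± 0.14, and *Cplx1* at -1.10 ± 0.34 and -0.73 ± 0.06. Both were below the marker median on all 7 arrays (SD over 4 and 3 arrays throughout).

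**Figure D5:**
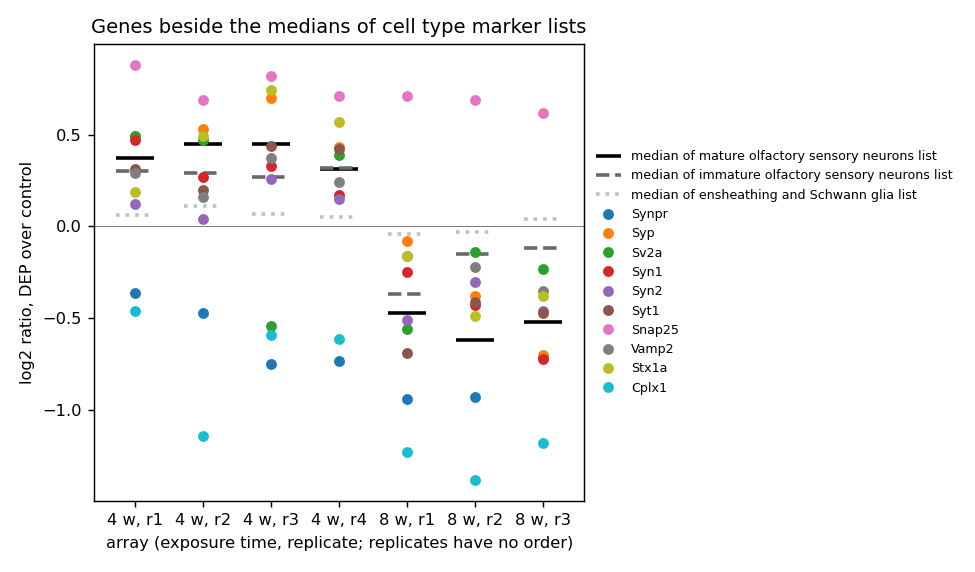
Log2 ratio of DEP over control (vertical axis) of the 10 genes (points) on each of the 7 arrays (horizontal axis, replicates in no order), beside the per-array medians of 3 marker lists (horizontal dashes). The median of the mature olfactory sensory neurons runs from 0.31 to 0.45 at 4 weeks and from -0.62 to -0.47 at 8 weeks, with Synpr and Cplx1 below it and Snap25 above it on all 7 arrays.

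The other lists moved less uniformly. Their counts of called genes stand beside 38.2% of all names called at 4 weeks and 37.5% at 8 weeks. Of immature olfactory sensory neurons, 9 of 10 markers were tested, with 5 higher and 1 lower at 4 weeks and none higher and 3 lower at 8 weeks, and *Gap43* read 0.08 and 0.11 without passing while *Gng8* read 0.51 (adjusted p = 0.0025) and -0.26 (adjusted p = 0.07). Their summed intensity was 12604 to 14102 (DEP) and 10064 to 10750 (control) at 4 weeks, and 9386 to 9525 and 10515 to 10953 at 8 weeks. Of olfactory bulb neurons, 9 of 12 listed symbols were tested, with 3 higher and 2 lower, and then 1 higher and 4 lower. Of their defining genes, *Tbr1* was not tested, *Tbx21* was well above background at 4 weeks on 1 array in the DEP channel and on none in the control channel, and *Gad2* read -0.93 and -0.69 without passing. For *Gad2*, replicate 4 of 4 weeks read -3, against -0.26, -0.26 and -0.21 on the other 4-week arrays. Its control channel was well above background on 1 of 4 arrays at that time. *Gad1* was lower at both times (-0.68 and -1.03, adjusted p = 0.00044 and 8.8e-05). Other genes of the list went another way. *Calb2* (0.33 and -0.51), *Cdhr1* (0.20 and -0.70) and *Eomes* (0.30 and -0.53) were called higher at 4 weeks and lower at 8 weeks. *Meis2* was higher at 8 weeks (0.41, adjusted p = 0.0079). The summed intensity of this list was 1975 to 2274 (DEP) and 1945 to 3645 (control) at 4 weeks, and 2613 to 2654 and 3131 to 3177 at 8 weeks.

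Skeletal muscle is another tissue that a nasal dissection can hold. All 10 of its markers were tested, with 3 higher and 2 lower at 4 weeks and 1 higher and 6 lower at 8 weeks. *Acta1* read -0.04 and -0.95, *Ckm* -0.02 and -1.32, and *Myh4* -0.27 and 0.82, where the 8-week values and that of *Myh4* at 4 weeks were called. The summed intensity was 198593 to 248347 (DEP) and 195974 to 211237 (control) at 4 weeks, and 114361 to 120581 and 144952 to 151612 at 8 weeks. Of 8 tested glial markers, 3 were higher and 1 lower, and then 2 higher and 2 lower, with *Sox10* at 0.32 (adjusted p = 0.026) and -0.13 (adjusted p = 0.38). Vomeronasal neurons had 7 of 8 markers tested (2 higher and 1 lower, then 4 higher and 2 lower), with *Trpc2* not tested. Peripheral neurons had 9 of 10 (1 higher and 2 lower, then 3 higher and 1 lower). In that list *Prph* read 0.06 (adjusted p = 0.32) and -0.29 (adjusted p = 0.0032), *Calca* was lower at 4 weeks (-0.50, adjusted p = 0.00099) and not well above background at 8 weeks, and *Trpv1* was not well above background at 4 weeks. Tuft cells had 3 of 9 markers tested (1 higher at each time), with *Trpm5* and *Gnat3* not tested. Beside 38.2% of all names called at 4 weeks and 37.5% at 8 weeks, the counts of these short lists are a description only. The part of these lists in the results was not tested.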

How the data were processed

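Each array gave 1 text file, which the authors deposited as written by Agilent Feature Extraction 10.10.1.1. The deposited values used here are median spot and local background intensities of both channels, not normalized. The deposited processed intensity served as an alternative, and the deposited log ratio was not used. The GeneSpring normalization named in the methods of the study was not repeated.

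Here backgrounds were corrected by normexp (offset 50), with its parameters fitted after removing spots flagged as background outliers, and ratios were normalized by loess (span 0.3) with limma 3.58.1 in R 4.3.3. Spots marked as outliers were left out and repeated spots averaged. Channel intensities were scaled between arrays (Aquantile). Of 39429 probes, 28330 were named by accession through RefSeq (GRCm38.p6), the rest by the array's own name. A probe was tested if its red or green signal was well above background on 3 or more of the 7 arrays (25162 probes). One linear model gave a mean per exposure time, each time and their difference were tested by limma, and p-values were adjusted by Benjamini-Hochberg. A gene is read by its brightest tested probe. Precision is limited by the number of arrays.

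The genes and lists were chosen with earlier results of these data known. All 10 genes are named, and of the release pathway the 5 highest and 5 lowest called ratios per time, the 5 genes most correlated with *Synpr* and the defining markers. Some genes that this rule names are not reported here. Replicate numbers did not pair the arrays (correlation of same-numbered deviations -0.01, -0.01 and 0.02). On simulated arrays of 20664 names, the test recovered 64% of 100 changes of 0.5 and 96% of 100 changes of 1 (log2) at 4 weeks. At 8 weeks it recovered 50% and 95%, and in the difference between the times 75% of changes of 1. In the simulation 20464 names were left unchanged, whereas 38.2% of names at 4 weeks and 37.5% at 8 weeks were called in the data. These recovery rates therefore do not carry over to the tests reported here. The alternatives were other background corrections, processed intensity, median centring, other filters, the arrays of 1 time alone, the replicate number as a block, the methods' t-test, the median over probes and leaving out each array.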

Additional observations from a re-analysis of the deposited data

Results flagged for a closer look

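The DEP over control ratio differed between 8 and 4 weeks by limma's test of the difference itself for 7 of the 10 genes. The difference was -0.93 for *Syp*, -0.78 for *Syn1*, -0.56 for *Syn2*, -0.87 for *Syt1*, -0.51 for *Vamp2*, -0.84 for *Stx1a* and -0.57 for *Cplx1* on the log2 scale, with adjusted p from 0.00071 to 0.032. Of the named genes of the release pathway, the difference was negative for *Dnm1* (-1.30), *Rab3a* (-0.87), *Bsn* (-0.79) and *Cadps2* (-0.36), and positive for *Rab27b* (0.98), *Cplx2* (0.79), *Cacna2d2* (0.41) and *Erc2* (0.28). In these differences, the slide cannot be told apart from the exposure time. In the fits that left out 1 array, the difference of *Cadps2* was lost without replicate 3 of 4 weeks (-0.36, adjusted p = 0.057), replicate 2 of 8 weeks (-0.29, adjusted p = 0.1) or replicate 3 of 8 weeks (-0.35, adjusted p = 0.076), and that of *Erc2* in all fits but the one without replicate 1 of 4 weeks. The difference of *Cacna2d2* was 0.06 with the processed signals (adjusted p = 0.8), 0.22 with median centring (adjusted p = 0.077) and 0.44 with the replicate block (adjusted p = 0.053). That of *Erc2* was 0.20 with the processed signals (adjusted p = 0.17), 0.10 with median centring (adjusted p = 0.48) and 0.09 with the median over all probes (adjusted p = 0.41), and it also missed the threshold with the replicate block (0.26, adjusted p = 0.11) and with normexp fitted on all spots (0.36, adjusted p = 0.075). With the replicate block the calls of *Bsn* (-0.76, adjusted p = 0.052) and *Cadps2* (-0.39, adjusted p = 0.051) were lost too, and with the median over all probes that of *Cadps2* (-0.27, adjusted p = 0.07). The median over all probes also gave -0.71 for *Dnm1* and 0.62 for *Rab27b*, both still called.

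In 3 of the 26 genes looked at, a single 4-week array stood far from the other 3 by Dixon's criterion, which flags about 1 in 20 groups by chance. These were replicate 3 for *Sv2a* (-0.54), replicate 1 for *Slc32a1* (-2.48) and replicate 1 for *Doc2a* (-0.48).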

How the results depend on the processing

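The direction of all 10 genes was the same in every alternative run, in 517 comparisons of single values, of which 475 kept their side of the threshold, 35 fell below it and 7 rose above it. The methods' t-test called 4 of the 10 genes and 21 of the release pathway list at 8 weeks, against 9 and 38, and 23.3% of all names, against 37.5%. At 4 weeks it called 6 and 25, against 8 and 37, and 21.1% of all names, against 38.2%. Leaving out each array in turn, 7 to 8 of the 10 genes were called at 4 weeks, 6 to 10 at 8 weeks and 6 to 7 in the difference between the times. The release pathway list had 31 to 38 calls at 4 weeks and 24 (without replicate 2 of 8 weeks) to 41 at 8 weeks. With the replicate number as a block, 8, 6 and 6 of the 10 genes were called, at 8 weeks without *Syp* (adjusted p = 0.096), *Vamp2* (0.1) and *Stx1a* (0.17). With the median over all probes of a gene, *Dnajc5* read -0.01 at 8 weeks in place of 0.88. Median centring moved the median of all probes to between -0.135 and -0.089 on the 8-week arrays, and left 4 higher and 2 lower of the 10 genes at 4 weeks. The cause of these changes was not tested. The fit to the arrays of 1 time and the methods' t-test were not run for the difference. Probes of low signal, such as those of *Synpr*, *Stx1a* and *Sv2a* and the second *Synpr* probe, are limited by their signal.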
